A study of Mus musculus with 2 samples.

Results

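The 10 genes described here encode the enzymes and mitochondrial carriers of the urea cycle and of ammonia entry into it. They were chosen by name, as all rows of the deposited tables whose gene name was Cps1, Otc, Ass1, Asl, Arg1, Nags, Slc25a13, Slc25a15, Gls2 or Glud1. All 10 were found, among 37146 genes in the files, and all 10 passed the filter that left 10533 genes. The libraries were made from the livers of CD-1 mice, an outbred laboratory stock. The nanoparticle group (NP) was dosed by mouth with titanium dioxide nanoparticles in suspension, at 50 mg per kg body weight daily, after 30 min of dispersal by ultrasound. Mice of the Control group received the same volume of phosphate-buffered saline instead. Both groups have a single RNA-seq library. The sources used here do not give the age of the mice, the length of dosing, the time of day or the number of mice pooled.

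The urea cycle turns toxic ammonia into urea. Ammonia and bicarbonate are joined in the mitochondria of hepatocytes, the product is passed on as citrulline, and the remaining steps run in the cytosol. In mouse liver the pathway is strongest in hepatocytes near the portal vein, while hepatocytes around the central vein capture the remaining ammonia as glutamine.

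Values are FPKM, which scales fragments to the length of a row and the size of a library, with the authors' deposited 95% interval. FPKM of all rows of a gene were added, and the row half-widths were combined in quadrature. This interval covers the estimate within 1 library and no spread between animals. No difference here has a replicate check and none could be tested, since a group is 1 library, so comparisons are between libraries and not between treatments. Read coverage divided by FPKM had a median of 2.29 in Control against 2.93 in NP, so coverage was deeper in NP. In bulk liver, fewer cells of a type and less RNA per cell cannot be told apart.

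Ass1 was the only gene of the pathway that differed by 1.5-fold, and it was lower in NP. Of the 10 genes, 0 were at least 1.5-fold higher in NP and 1 was at least 1.5-fold lower, counted on the scale of log2(FPKM + 1). Over all 10533 genes 3.6% were that much higher and 5.33% that much lower. The NP interval lay wholly above the Control interval for Glud1, Gls2 and Slc25a15, against 7.73% of all genes. It lay wholly below for Ass1 and Slc25a13, against 9.58% of all genes. Intervals of abundant genes are narrow, and among the 1994 genes with a mean at least as high as that of Nags the shares were 16.4% above and 14.2% below. Of those 1994 genes, 3.11% were at least 1.5-fold higher in NP and 2.71% at least 1.5-fold lower. The median log2 ratio was 0.08 over the 10 genes and -0.03 over all genes. Summed over the 10 genes, the level was 1989 FPKM in Control against 2073 in NP, a ratio of 1.04.

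**Figure D1:**
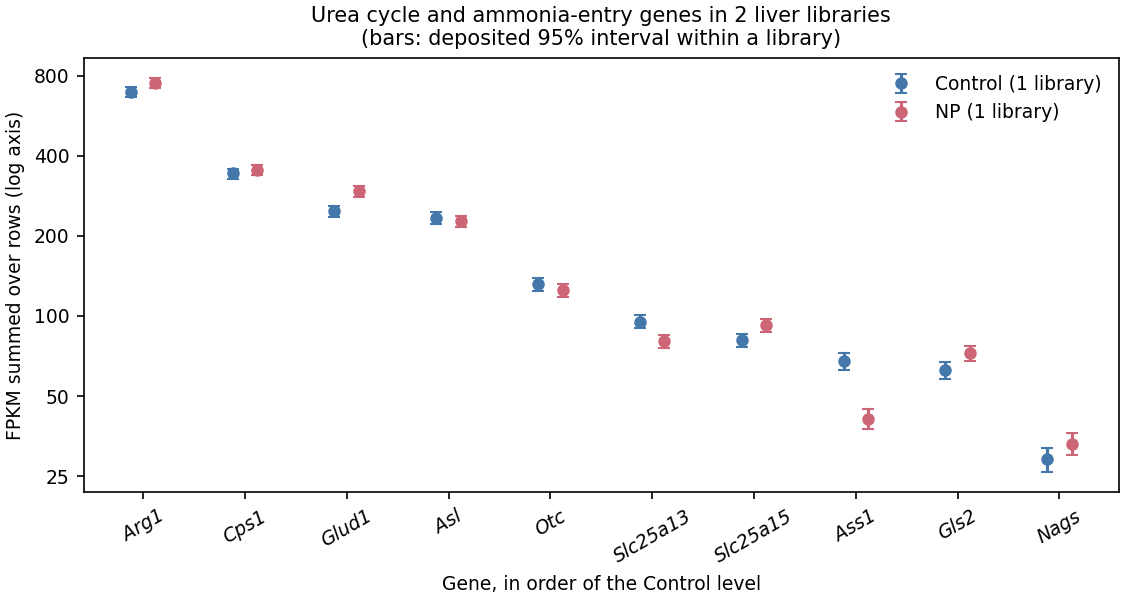
Summed FPKM of the 10 genes in the Control and NP libraries, on a log axis, with the deposited 95% interval of each library as bars. Most pairs of points lie close together, and Ass1 shows the widest gap, from 67.5 FPKM in Control to 41.0 in NP.

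Levels within the pathway spanned a wide range, and their order was nearly the same in both libraries. In Control the order was Arg1, Cps1, Glud1, Asl, Otc, Slc25a13, Slc25a15, Ass1, Gls2 and Nags, from 696 down to 28.9 FPKM. Neighbours with overlapping intervals were Glud1 and Asl, and Ass1 and Gls2. In NP Slc25a15 stood above Slc25a13 and Gls2 above Ass1, and the overlapping neighbours were Slc25a13 and Gls2. Arg1 was 24.1 times Nags in Control against 22.8 times in NP. FPKM is a level per length, so these orders compare genes of different size.

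Glud1 encodes glutamate dehydrogenase, which releases ammonia from glutamate in mitochondria. It was at 248 FPKM (interval 236 to 260) in Control against 294 (281 to 308) in NP, a ratio of 1.19 with separate intervals. This was the highest ratio of the 10 genes, and 85.1% of all genes had a lower one. Its whole level lay in 1 of 5 transcript rows, and the gene spans chromosome 14 from 35123913 to 35158330 in build mm9 of the files.

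Gls2 encodes the liver glutaminase, which releases ammonia from glutamine and is a periportal enzyme. It was at 62.6 FPKM (58.0 to 67.1) in Control against 72.7 (67.9 to 77.4) in NP, a ratio of 1.16, and spans chromosome 10 from 127631513 to 127647060. The intervals were separate by a narrow margin. The rows of the gene did not move alike. Its 18-exon coding transcript, ENSMUST00000044776.6, was at 42.7 FPKM (39.3 to 46.1) and 54.4 (50.6 to 58.2), a ratio of 1.27. A row annotated as a retained intron, ENSMUST00000135441.1, had overlapping intervals, at 16.9 and 16.6 FPKM. The row for the whole gene span, which can also take intronic reads, was lower in NP, at 2.99 (2.68 to 3.31) and 1.69 (1.47 to 1.91) FPKM. The end of Gls2 overlaps Spryd4, which was at 21.0 FPKM in Control against 17.8 in NP, and whether reads of the pair were exchanged was not tested.

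Nags encodes N-acetylglutamate synthase, whose product is the required activator of the first enzyme of the cycle. It was the lowest of the 10 genes, at 28.9 FPKM (25.8 to 31.9) in Control against 33.1 (29.9 to 36.2) in NP, a ratio of 1.15 with overlapping intervals. Its coding transcript ENSMUST00000055409.5 was at 23.3 and 26.3 FPKM. A second, noncoding row, ENSMUST00000147252.1, was at 5.55 and 6.80 FPKM, and both rows had overlapping intervals. The gene spans chromosome 11 from 102006827 to 102010791.

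The minor rows of Gls2 and Nags share most of their bases with the coding row, so their levels rest on few bases of their own. In GENCODE M21 (build GRCm38), 1467 of the 1529 bases of the Gls2 row and 1585 of the 1709 bases of the Nags row lie in exons of the coding transcript. The start of each minor row is shown here because it holds bases that tell it from the coding row, 59 of 62 such bases for Gls2 and all 124 for Nags. Capitals mark those bases, which are intronic in the coding transcript, and the next 30 bases in lower case are shared. Both are on the plus strand, 5′ to 3′, at chr10:128203764-128203852 and chr11:102146366-102146519.
Gls2 retained-intron row: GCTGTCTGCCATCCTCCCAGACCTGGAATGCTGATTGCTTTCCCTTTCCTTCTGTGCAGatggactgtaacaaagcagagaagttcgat
Nags noncoding row: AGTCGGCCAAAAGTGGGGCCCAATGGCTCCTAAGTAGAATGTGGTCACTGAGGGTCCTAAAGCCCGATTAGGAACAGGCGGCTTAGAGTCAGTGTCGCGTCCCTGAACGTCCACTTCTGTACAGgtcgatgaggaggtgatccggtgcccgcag

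Cps1 encodes carbamoyl phosphate synthetase, the rate-limiting first enzyme of the cycle and among the most abundant proteins of liver mitochondria. It was at 343 FPKM (328 to 359) in Control against 353 (338 to 369) in NP, a ratio of 1.03 with overlapping intervals. All of it lay in its single transcript row, and the gene-span row of 108234 bases, on chromosome 1 from 67169600 to 67277833, was listed at 0 in both libraries. Otc, the X-linked gene of ornithine transcarbamylase, which makes citrulline, was at 132 FPKM (124 to 139) and 125 (118 to 132), a ratio of 0.947. Its intervals overlapped, and 1 of its 2 transcript rows held the whole level. Otc spans chromosome X from 9829431 to 9898150. The ratio of Cps1 to Otc was 2.60 in Control against 2.83 in NP.

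Slc25a15 encodes the ornithine carrier ORNT1, which exchanges ornithine for citrulline across the inner mitochondrial membrane. It was at 81.3 FPKM (76.6 to 85.9) in Control against 92.1 (87.2 to 97.1) in NP, a ratio of 1.13 with separate intervals. Its single transcript row held the whole level, on chromosome 8 from 23486026 to 23509093.

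Slc25a13 encodes citrin, the aspartate and glutamate carrier that supplies aspartate to the cytosolic steps. Its sum was 95.3 FPKM (89.9 to 101) in Control against 80.5 (75.9 to 85.1) in NP, 1.18-fold lower with separate intervals. That difference lay in a single row. The longer transcript, ENSMUST00000015256.7, was at 77.9 FPKM (73.1 to 82.8) and 80.3 (75.7 to 84.8), a ratio of 1.03. The shorter one, ENSMUST00000169197.1, was at 17.2 FPKM (14.8 to 19.5) in Control and listed at 0 in NP, with a deposited upper limit of 0.0654. Without that row, a version chosen after the values were seen, the log2 ratio of the gene was 0.042 and its intervals overlapped. A row listed at 0 can be a failed estimate, and the files do not tell the cases apart. The gene spans chromosome 6 from 5991219 to 6167173.

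Ass1 encodes argininosuccinate synthase, which joins citrulline and aspartate and is the first cytosolic step. It was at 67.5 FPKM (62.4 to 72.5) in Control against 41.0 (37.5 to 44.5) in NP, 1.64-fold lower with separate intervals. Its log2 ratio of -0.70 was the lowest of the 10 genes, and 3.7% of all genes had a lower one. Both rows that were above 0 were lower in NP, but they are estimates for 1 gene from the same libraries and not separate observations. The full transcript, ENSMUST00000102840.4, was at 64.3 FPKM (59.3 to 69.3) and 39.0 (35.5 to 42.6). The gene-span row was at 3.15 (2.94 to 3.36) and 1.97 (1.82 to 2.11) FPKM, or 0.623 times Control beside 0.607 times for the transcript. That row is long, at 50466 bases. Its FPKM times length in kb was 159 in Control and 99.2 in NP, above the 109 and 66.2 of the transcript. Ass1 was alone among the 10 genes in this. The nearest in Control was Gls2, with 46.6 for its span row against 136 for its transcript rows. How reads were divided between the Ass1 rows was not tested. Over the 706 span rows with at least 1 FPKM in both libraries, the median log2 ratio was -0.06. Coverage per FPKM of the Ass1 transcript was 2.09 in Control against 2.71 in NP. In the other transcript rows of the 10 genes it ran from 2.25 to 2.35 in Control and from 2.88 to 2.97 in NP. The Ass1 value was thus the lowest in both libraries. The gene spans chromosome 2 from 31325727 to 31376192, and no other gene in the files overlaps it.

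Asl encodes argininosuccinate lyase, which releases arginine and fumarate in the next step. Its sum was 234 FPKM (221 to 246) in Control against 227 (216 to 238) in NP, a ratio of 0.973 with overlapping intervals. The rows beneath that sum differed. The main transcript, ENSMUST00000159619.1, was at 119 FPKM (111 to 127) in Control against 166 (156 to 175) in NP, a ratio of 1.40. A further full-length transcript, ENSMUST00000161094.1, was at 43.3 (38.7 to 47.9) and 56.6 (51.5 to 61.7) FPKM, or 1.31 times Control. The short transcript ENSMUST00000161640.1 was at 65.3 FPKM (56.9 to 73.6) in Control and listed at 0 in NP, with a deposited upper limit of 0.246. In GENCODE M21 all 923 bases of the short transcript lie in exons of ENSMUST00000159619. All 787 of its coding bases are coding in both longer transcripts, so under that annotation few reads can tell it apart. The files list ENSMUST00000159619.1 at 1820 bases against 2088 in GENCODE M21, so the structure behind its FPKM was not the same. FPKM times row length, summed over transcript rows, was 356 in Control against 405 in NP, a ratio of 1.14. Without the short row, a version chosen after the values were seen, the ratio was 1.35 with separate intervals. The gene spans chromosome 5 from 130487128 to 130501002.

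Arg1 encodes liver arginase, which splits arginine into urea and ornithine. It was the highest of the 10 genes, at 696 FPKM (664 to 728) in Control against 753 (720 to 787) in NP, a ratio of 1.08 with overlapping intervals. Its gene-span row was at 10.6 and 10.5 FPKM. The gene spans chromosome 10 from 24635014 to 24647276. Across the cytosolic steps, the level of Asl was 3.46 times that of Ass1 in Control against 5.54 times in NP, and that of Arg1 was 10.3 and 18.4 times that of Ass1.

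**Figure D2:**
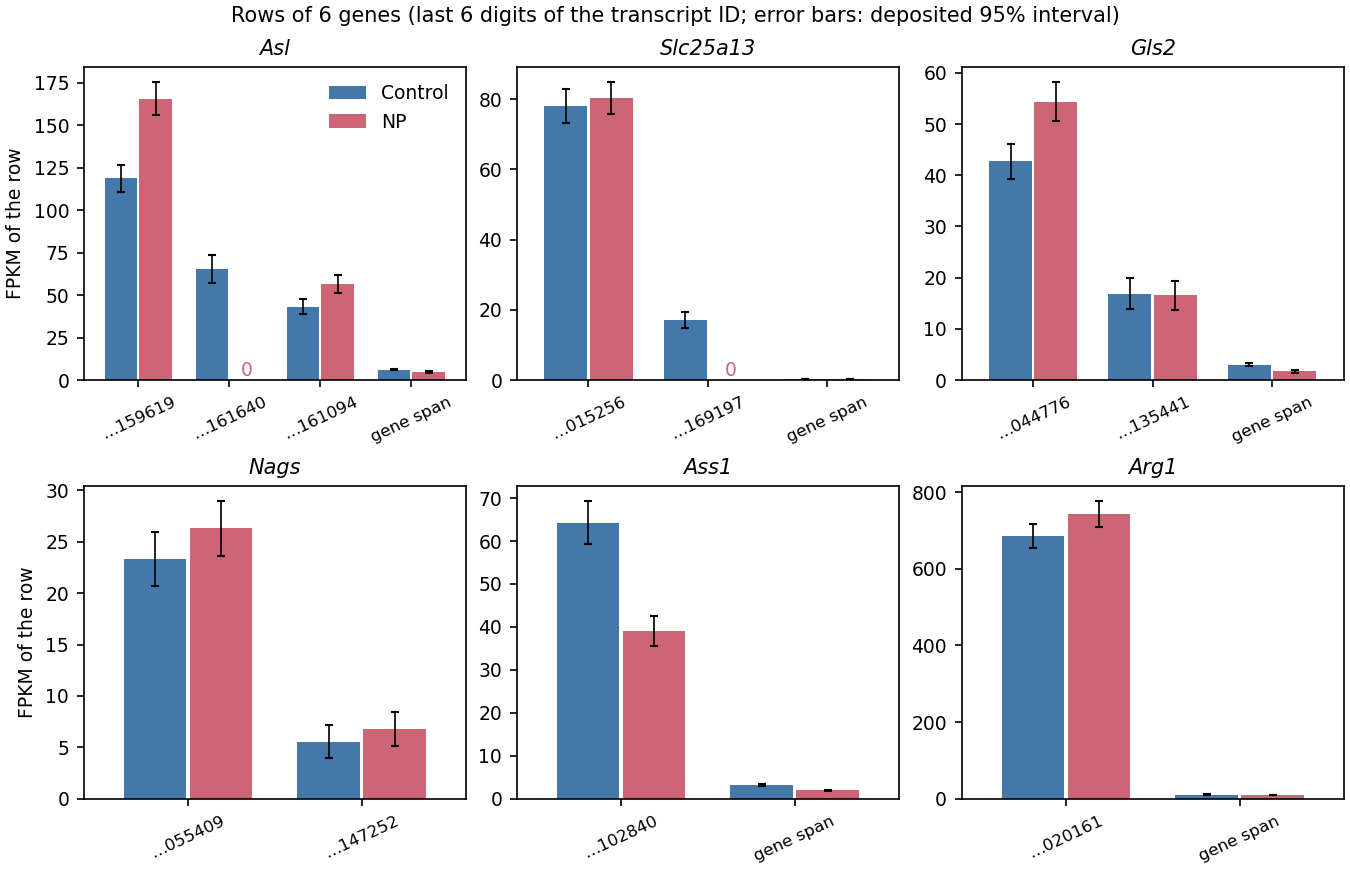
FPKM of each row above 0 in at least 1 library for 6 of the genes, with Control beside NP and the deposited 95% interval as error bars; the last bars of 5 panels are the row of the whole gene span. One row each of Asl and Slc25a13 is listed at 0 in NP, while both rows of Ass1 are lower in NP.

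Over the 10 genes the files hold 38 transcript rows and 10 gene-span rows. In Control 15 transcript rows were above 0 and in NP 13, of which 13 were above 0 in both. The 2 rows above 0 in Control alone are those of Asl and Slc25a13. Such rows occur across the files, where 143 of 4490 transcript rows with at least 10 FPKM in Control were listed at 0 in NP, or 3.18%. In the other direction 90 of 4389 rows, or 2.05%, were listed at 0 in Control.

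**Figure D3:**
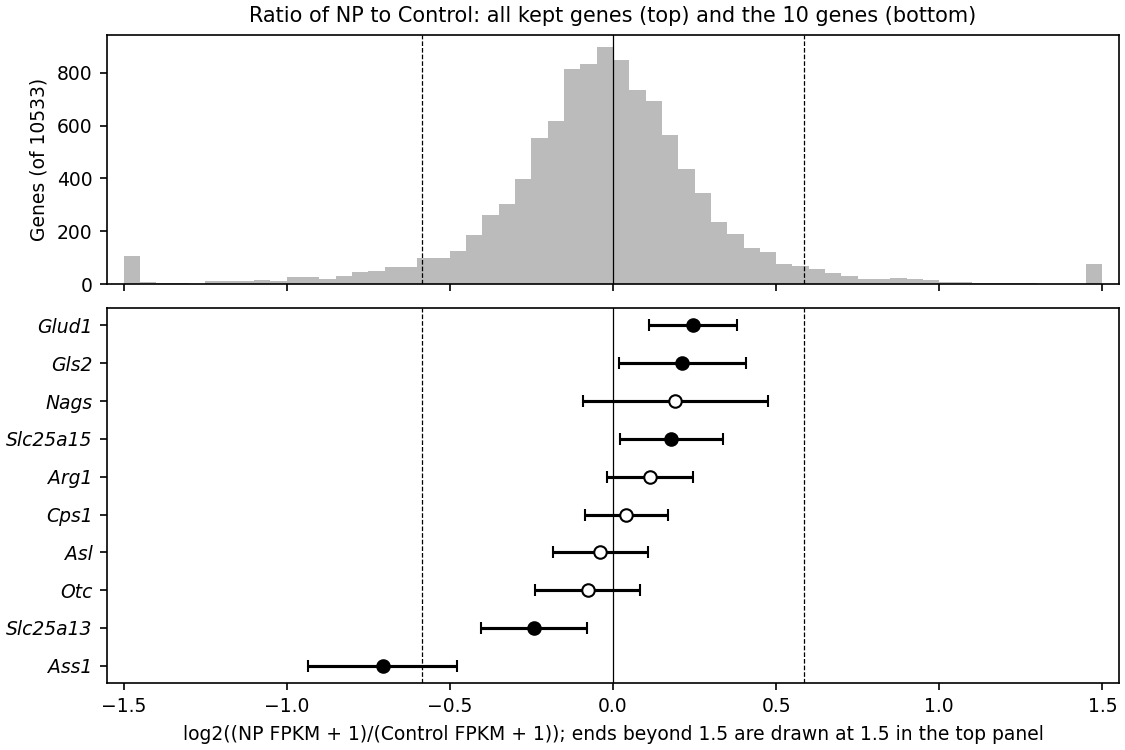
Distribution of the log2 ratio of NP to Control over 10533 genes (top) and the ratio of each of the 10 genes with its range from the deposited intervals (bottom). Dashed lines mark 1.5-fold, filled points have separate intervals, and only the point of Ass1 lies beyond a dashed line.

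RefSeq promoter windows (build GRCm38.p6, 250 bases before to 50 after the start) were given for 6 of the genes, Ass1, Glud1, Nags, Otc, Slc25a13 and Slc25a15, the last with 2 windows. No window was used here for Cps1, Asl, Arg1 and Gls2. The letters CACGTG, an E-box, were found in the windows of Ass1 and Slc25a13 and in 1 window of Slc25a15, and in 7.15% of all 32851 windows. Those 3 windows are shown because they hold the E-box. Ass1 was lower in NP and Slc25a15 higher, while the lower Slc25a13 sum lay in its shorter row alone. That row starts inside the gene, at 6142605 in mm9. The longer row starts at the gene end, 6167173, and had a ratio of 1.03. The Slc25a13 window is thus not shown as that of a row lower in NP. Capitals mark matches on either strand to CACGTG, to the GC box GGGCGG, to CCAAT and to TGACG, the core of a cyclic AMP response element. The GC box is in 35.7% of all windows, CCAAT in 37.4% and TGACG in 20.8%. Windows are rich in G and C, at 74.0% for Ass1, 65.0% for Slc25a13 and 79.0% for Slc25a15, against a median of 52.7%. They lie at chr2:31470020-31470319 (plus strand), chr6:6217124-6217423 (minus strand) and chr8:22398228-22398527 (minus strand), and read 5′ to 3′ along the gene.
Ass1: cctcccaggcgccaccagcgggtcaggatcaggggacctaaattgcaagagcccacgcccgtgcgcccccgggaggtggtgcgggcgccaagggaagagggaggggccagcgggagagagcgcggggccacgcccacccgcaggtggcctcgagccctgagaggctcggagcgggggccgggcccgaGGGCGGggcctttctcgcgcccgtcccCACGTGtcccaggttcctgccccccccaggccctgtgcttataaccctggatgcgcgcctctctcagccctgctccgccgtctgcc
Slc25a13: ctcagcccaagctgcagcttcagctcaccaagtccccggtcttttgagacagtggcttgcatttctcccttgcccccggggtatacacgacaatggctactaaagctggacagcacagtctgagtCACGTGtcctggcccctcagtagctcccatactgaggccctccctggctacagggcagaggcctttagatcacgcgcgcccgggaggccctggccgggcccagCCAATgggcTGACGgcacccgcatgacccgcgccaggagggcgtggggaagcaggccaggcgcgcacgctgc
Slc25a15: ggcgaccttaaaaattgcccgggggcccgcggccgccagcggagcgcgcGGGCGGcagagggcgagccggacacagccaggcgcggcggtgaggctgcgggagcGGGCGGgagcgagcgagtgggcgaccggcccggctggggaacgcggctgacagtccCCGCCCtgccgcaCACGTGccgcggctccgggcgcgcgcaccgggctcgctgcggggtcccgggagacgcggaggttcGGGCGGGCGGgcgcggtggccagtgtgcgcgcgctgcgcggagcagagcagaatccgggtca
The Ass1 window held 1 GC box and 1 E-box. The Slc25a13 window held 1 E-box, 1 CCAAT and 1 TGACG, and the Slc25a15 window held 1 E-box and 5 GC boxes, of which 2 overlap. Other motifs were searched on both strands and found in 0 of these windows. They were the TATA box, spelled TATAAA and present in 13.6% of all windows, and part of a C/EBP site, spelled TTGCG and present in 17.4%. The FOXA core, spelled TGTTTAC, is in 3.65% of all windows and the HNF4 core, spelled CAAAGTCCA, in 0.475%. The ATF4 core, spelled TTGCATCA, is in 0.895% and part of the glucocorticoid response element, spelled TGTTCT, in 19.0%. A match is a run of letters, and binding was not measured.

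Genes around the pathway were read from 7 lists with 84 genes, of which 68 passed the filter. Of these, 1 was at least 1.5-fold higher in NP, 1 at least 1.5-fold lower and 66 lay between. Their median log2 ratio was 0.08. Of all 10533 genes 91.1% lay between these limits, and the list counts below stand beside that share. Fewer of the 1994 abundant genes were past them, 3.11% higher and 2.71% lower. For 18 of the 68 the NP interval was entirely above the Control interval, and for 8 entirely below. All genes have the 7.73% and 9.58% given above, and abundant genes 16.4% and 14.2%.

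Paralogs of the 10 genes and related carriers were near the floor in both libraries. Arg2, the mitochondrial arginase, was listed at 0 in both. Slc25a12, the paralog of citrin, was at 2.84 and 3.09 FPKM, and Slc25a2, a further ornithine carrier, at 0.611 and 0.313. Slc25a29, a carrier of basic amino acids, was at 2.11 and 2.87 FPKM, and Cad, which makes carbamoyl phosphate for pyrimidines, at 2.04 and 2.67. Intervals of these 4 genes with a level above 0 overlapped.

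Of the enzymes that pass nitrogen between glutamine, glutamate and aspartate, 9 of 9 kept genes lay within 1.5-fold, beside 91.1% of all genes. Glul, the glutamine synthetase of pericentral hepatocytes, was at 165 FPKM (156 to 173) and 176 (168 to 185). Got1 and Got2, the cytosolic and mitochondrial aspartate aminotransferases, had 32.6 and 38.7 FPKM and 99.8 and 99.0 FPKM respectively. Oat, ornithine aminotransferase, was at 334 and 326 FPKM, and the asparaginase Aspg at 60.7 and 57.7, all with overlapping intervals. Gpt2, the mitochondrial alanine aminotransferase, had separate intervals, at 80.0 FPKM (75.5 to 84.5) and 102 (96.4 to 107).

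Amino acid catabolism, from which ammonia is released, had 14 of 14 kept genes within 1.5-fold, beside 91.1% of all genes. The list had a median log2 ratio of 0.16, beside -0.03 over all genes, with 11 ratios above 0. Tat, tyrosine aminotransferase, was at 539 FPKM (516 to 562) and 665 (637 to 693), a ratio of 1.23. Sdsl, a serine dehydratase-like enzyme, was at 8.35 and 10.9 FPKM with overlapping intervals. Gcsh, a protein of the glycine cleavage system, was lower in NP with separate intervals, at 52.3 FPKM (47.6 to 57.0) in Control against 41.2 (37.3 to 45.0) in NP.

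Among 11 kept genes of arginine and ornithine use, all lay within 1.5-fold, beside 91.1% of all genes. Ddah1, which degrades methylated arginines, was at 24.4 FPKM (22.0 to 26.8) and 30.5 (28.0 to 33.1). Prodh, proline dehydrogenase, was 1.41-fold lower in NP, with 55.0 FPKM (50.8 to 59.1) against 39.1 (35.8 to 42.3). Odc1, the first enzyme of polyamine synthesis, was at 14.0 and 11.1 FPKM with overlapping intervals.

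In the list of bicarbonate, water, urea and ammonia transport, Car14, a membrane-bound carbonic anhydrase, was the gene past 1.5-fold, at 7.89 FPKM (6.34 to 9.43) in Control against 13.2 (11.2 to 15.1) in NP. The list median was 0.30 over 7 kept genes. Aqp8, a water channel, was at 7.70 and 10.9 FPKM, while Rhbg, an ammonia channel, was at 2.06 and 2.04 and Car2 at 1.72 and 1.64, all with overlapping intervals. Car5a, the mitochondrial carbonic anhydrase, was not analysed here.

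Among 7 kept amino acid transporters of the plasma membrane, Slc43a1, a carrier of large neutral amino acids, was the gene at least 1.5-fold lower in NP, at 3.06 FPKM (2.32 to 3.80) and 1.56 (1.04 to 2.07). Slc7a2, which takes up arginine and ornithine, was at 112 FPKM (107 to 117) in Control against 74.4 (70.8 to 78.0) in NP, a plain ratio of 0.665. Its log2 ratio of -0.58 on the FPKM + 1 scale lay just inside the threshold. Slc38a2, a glutamine carrier, was at 29.4 and 35.7 FPKM with separate intervals, and Slc1a2, a glutamate carrier, at 27.0 and 30.3 with overlapping ones.

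Of 16 regulators 0 were past 1.5-fold, with 5 NP intervals above and 3 below those of Control. All genes have 7.73% above and 9.58% below, and abundant genes 16.4% and 14.2%. Hnf4a, a nuclear factor known to control urea cycle genes in mouse liver, was at 200.1 FPKM (192 to 208) and 248 (239 to 257). Cebpa and Cebpb, related factors of the C/EBP family, differed in direction. Cebpa was at 153 (148 to 158) and 118 (114 to 122) FPKM, and Cebpb at 51.5 (47.0 to 56.1) and 77.7 (72.1 to 83.4), just inside the threshold with a log2 ratio of 0.58. Foxa2, a pioneer factor, was at 8.50 and 12.7 FPKM, and Nr1h4, the bile acid receptor FXR, at 57.8 and 42.9, both with separate intervals. Sirt5, the deacylase that acts on the enzyme encoded by Cps1, was at 7.15 and 5.64 FPKM with overlapping intervals.

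**Figure D4:**
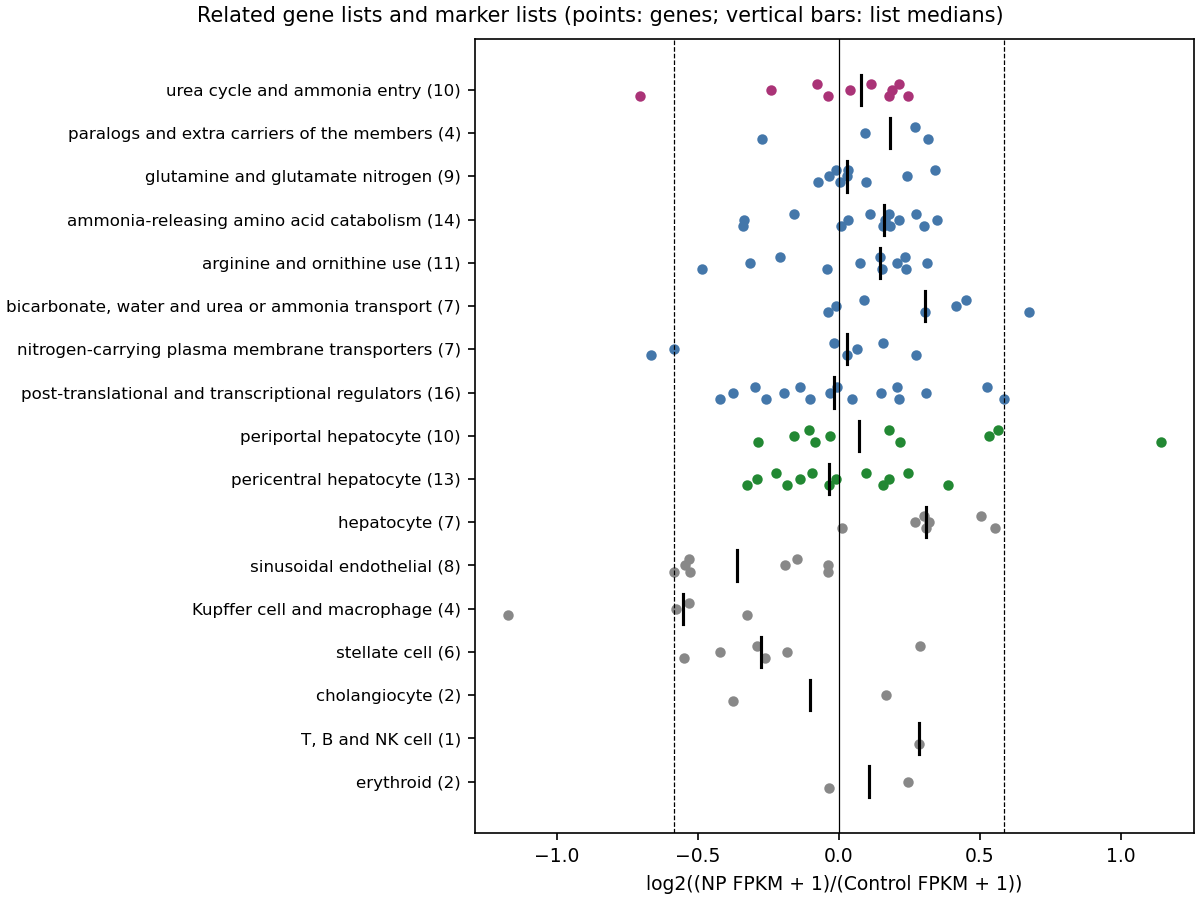
Log2 ratio of NP to Control for each kept gene of the 10-gene pathway, the 7 related lists, 2 zonation lists and 7 cell type lists, with list medians as vertical bars and 1.5-fold as dashed lines. The pathway and its related lists have medians from -0.02 to 0.30, while the endothelial, Kupffer and stellate medians lie from -0.55 to -0.28.

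Markers of both hepatocyte zones held log2 ratios in both directions. Of 10 kept periportal markers 5 had a log2 ratio above 0 and 5 below, with a median of 0.07, and the NP interval was above that of Control for 4 and below for 1. Their summed level was 3159 FPKM in Control against 3310 in NP. Hsd17b6, a steroid dehydrogenase, was the marker past 1.5-fold, at 120.3 and 267 FPKM. Of 13 kept pericentral markers 5 were above 0 and 8 below, with a median of -0.03, and the NP interval was above for 2 and below for 4. For both zones these counts stand beside 7.73% above and 9.58% below for all genes, and 16.4% and 14.2% for abundant genes. The 14 pericentral markers in the files summed to 7276 and 6143 FPKM, most of it Cyp2e1. Whether the zones differed was not tested. Markers of the labelled tissue were abundant, with Alb at 21660 and 30741 FPKM, and all 7 hepatocyte markers were measured in both libraries.

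Markers of other cell types were read by list. Sums here are over all markers of a list in the files, whether or not they passed the filter. The interval counts stand beside 7.73% above and 9.58% below for all genes, and 16.4% and 14.2% for abundant genes. Log2 ratios of all 8 sinusoidal endothelial markers were negative (median -0.36), with a summed level of 105 FPKM in Control against 80.6 in NP. Their NP interval was below that of Control for 3 and overlapped for 5. Clec4g had the highest level of that list, at 44.6 and 30.6 FPKM. All 4 kept of 7 Kupffer cell and macrophage markers were below 0, with a median of -0.55 and sums over all 7 of 33.8 and 17.4 FPKM. The NP interval was below for 2 of these and overlapped for 2, and Clec4f had the highest level, at 18.4 and 7.63 FPKM. Of the stellate cell markers 5 of 6 kept were below 0, with sums over all 8 listed of 104 and 84.2 FPKM. Here the NP interval was below for 3 and overlapped for 3, and Dcn had the highest level, at 70.8 and 57.7 FPKM. Hepatocyte markers went the other way, with 7 of 7 above 0, a median of 0.31 and sums of 39531 and 52381 FPKM. Their NP interval was above for 6 and overlapped for 1, and Alb made up most of the sums. Endothelial cells and macrophages can express Ass1, and the part of these differences in the lower Ass1 level was not tested. Cholangiocyte markers summed to 18.0 and 14.3 FPKM, with 2 of 6 kept and 1 ratio on each side of 0. Of the T, B and NK cell markers 1 of 7 passed the filter, with sums of 2.59 and 2.96 FPKM. The erythroid markers, 2 kept of 4, summed to 391 and 389.9 FPKM, with Slc4a1 listed at 0 in NP.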

How the data were processed

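Livers of CD-1 mice gave 1 RNA-seq library per group, Control and NP, made with an Illumina TruSeq RNA kit per the labels' protocols. Per the submitters' processing notes, the tools were TopHat2 2.1.0 and Cufflinks 2.2.1.0 and the build was mm9. The sources used here do not state their roles, strandedness or fragment totals. The deposited FPKM values, with 95% intervals, are in the isoform tracking format of Cufflinks per the file headers. Read coverage, a signal not scaled to library size, and row length (other) stand beside them per the file headers. FPKM of the rows of a gene were summed, and rows at 0 had no width.

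The filter asked for a mean of 1 FPKM or more, rows all of OK status, a transcript no shorter than 300 nt and a name that is no small RNA. Ratios are log2((NP + 1)/(Control + 1)), which understates differences of low genes, while ratios given without a scale are of plain FPKM. A fixed size rule of 1.5-fold stood in for a test. The 10 genes, the lists and the thresholds were chosen with earlier results of these data known. Hsd17b6, Cyp2e1, Alb, Slc4a1, Clec4g, Clec4f and Dcn were named after their values were seen. The naming rule otherwise took all 10 genes, the 2 highest and 2 lowest ratios of each related list and 11 fixed genes. Results of some genes under this rule are not reported here. The counting was tested on simulated data. Starts were converted to count from 1. Coordinates of sequences are GRCm38 and all others mm9. Python 3.11.15, pandas 2.3.3, numpy 2.4.6 and matplotlib 3.10.9 were used.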

Additional observations from a re-analysis of the deposited data

How the results depend on the processing

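No paired analysis was possible because each group has 1 library. Alternatives covered the pseudocount (0.1 and 5 FPKM), 3 scalings of NP, the rows summed and the size rule; 2 versions, without transcript rows at 0 in 1 library and with FPKM times length, were chosen after seeing the data. Over 9 alternatives the log2 ratio of Ass1 stayed between -0.72 and -0.66. The Slc25a13 ratio turned from -0.24 to 0.042 with its highest row alone, and to 0.042 without rows at 0. The Asl ratio moved from -0.04 to 0.48 with its highest row alone, 0.43 without rows at 0 and 0.19 with FPKM times length. With a size rule of 2-fold, 0 of the 10 genes passed, beside 1.14% of all genes higher in NP and 1.88% lower. With a rule smaller than 1.5-fold, 1 of the 10 passed, lower in NP, beside 10.2% of all genes higher and 14.0% lower. Separate intervals were counted for 5 genes, 6 with NP scaled to a median ratio of 1 (Arg1 added) and 4 with half-widths added (Gls2 lost). Among the related lists, that scaling put 1 regulator past 1.5-fold, and a mean of at least 5 FPKM removed Slc43a1. With 1 library per group and no fragment totals, depth is known only through the deposited coverage and intervals. Upper half-widths of the intervals were 4.35% to 10.6% of the value for the 10 genes. A ratio carries the error of both libraries, as in the 0.937 to 1.40 of Nags.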
